A study of Mus musculus with 24 samples.

Results

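The Müller glia genes described here are 10 genes known from this cell type, Glul, Slc1a3, Kcnj10, Aqp4, Abca8a, Gpr37, Car14, Apoe, Clu and Vim, found by symbol on chromosomes 1 to 19 or X. All 10 were present among the 45594 genes of the deposited gene table, and all 10 were among the 21858 genes that passed the filter on low counts. They were followed in retinas of C57/Bl6N mice before birth at E11, E12, E14 and E16 (embryonic days), on the day of birth (P0) and at P2, P4 and P6, and later at P10, P14, P21 and P28 (postnatal days). Each age was represented by 2 libraries, 24 in all, prepared from polyadenylated RNA with strand kept. Library preparation started from 100 ng of total RNA at E11 and E12 and from 1 µg at the other ages, so the amount of input and the earliest ages cannot be told apart. The labels do not say whether the libraries of an age came from separate animals, so p-values measure only the spread between these samples. Library totals ran from 24567532 to 35898879 estimated counts.

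Müller glia are the main glial cells of the retina and span its whole thickness. They take up glutamate released by neurons and convert it to glutamine, carry potassium and water away from the synaptic layers, buffer carbon dioxide and bicarbonate, and supply lipids. They are among the last cells to be born from retinal progenitors, and several of their genes are already active in those progenitors. The libraries are of whole retina, so fewer cells of a type and less RNA per cell cannot be told apart.

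Levels are given as counts scaled to library size and composition (TMM-scaled CPM), replicate 1 before replicate 2, and are not corrected for gene length. A gene was called in a comparison where the Benjamini-Hochberg adjusted p of the edgeR quasi-likelihood test was under 0.05 and the change was at least 2-fold. In the test over all 12 ages, 10 of 10 genes were called, as were 77.3% of all genes tested, so a change with age as such sets these genes little apart from others. Their profiles differed. Car14 and Vim had their highest mean at E11, Slc1a3 at P10, Aqp4 and Gpr37 at P14, Glul, Kcnj10, Apoe and Clu at P21, and Abca8a at P28. For Vim that mean rests on E11 replicate 1 (839 CPM), as E11 replicate 2 (508 CPM) lay under every library of E12 and E14. In TPM, which are scaled by transcript length and library total, the highest mean of Vim was at E14 (1003). Those of Kcnj10, Abca8a and Apoe were at P14 in TPM (32.2, 175 and 629).

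**Figure D1:**
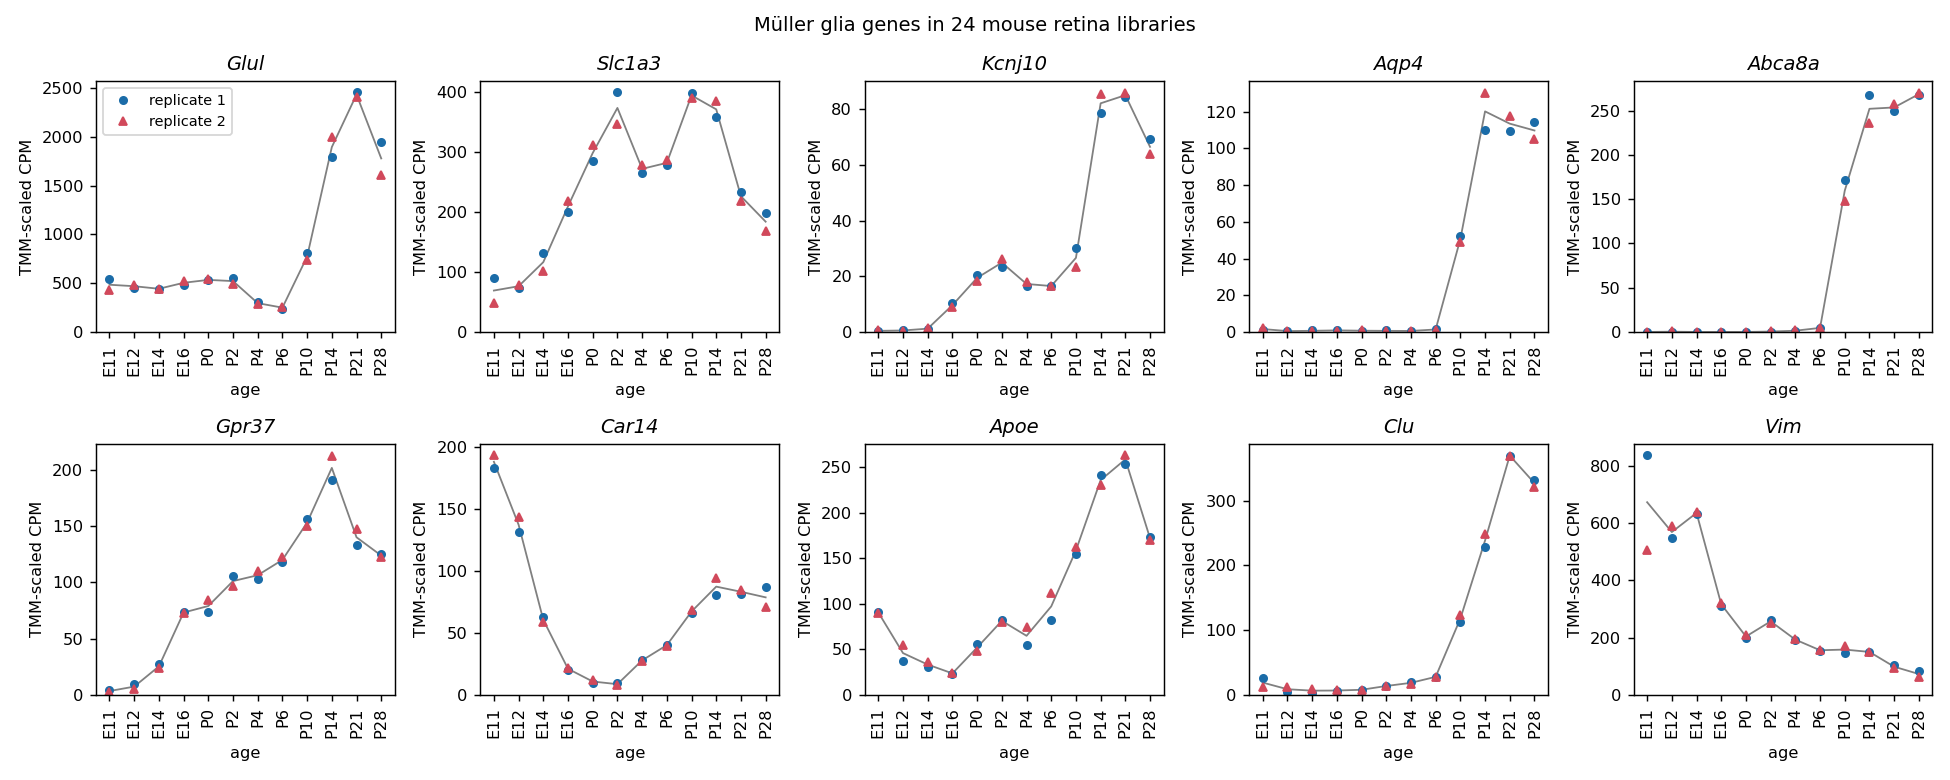
TMM-scaled CPM (linear axes from 0, one scale per gene) of the 10 genes against age, with 1 point per library and a line through the means of the 2 libraries. Aqp4 and Abca8a lie near 0 until P6 and at 148 to 172 CPM (Abca8a) or 48.9 to 52.2 CPM (Aqp4) at P10. The means of Car14 and Vim are highest at E11, where the 2 Vim libraries lie at 839 and 508 CPM.

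The libraries E11 replicate 1, E12 replicate 2 and E14 replicate 2 stood apart in lens transcripts. The summed level of 7 lens markers was 2999 CPM in E11 replicate 1, 2883 CPM in E12 replicate 2 and 2039.9 CPM in E14 replicate 2, against 13.99, 212 and 56.9 CPM in the other library of each age and 1.86 to 2.16 CPM at E16. The summed level of 8 mesenchyme markers was also highest early, with 151 to 201 CPM at E11 and 10.7 to 12.3 CPM at E16. That of 10 pigment epithelium markers was 179.5 to 231 CPM at E11 and, overlapping this, 169 to 218 CPM at P10. Calls of the 10 genes that change without these libraries are given both ways.

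Set side by side, the 10 genes separate by window. From E11 to E16, 3 were higher and 4 lower (all genes tested: 13.6% higher and 9.11% lower), with a median of -0.41 on the log2 scale against 0.00 over all genes, or -0.89 without Abca8a, which had too few counts for a fold. Without the 3 libraries high in lens markers, 3 were higher and 3 lower in this window, with Clu and Vim no longer called and Aqp4 called as lower. From E16 to P6, 3 were higher and 2 lower (all genes: 13.2% and 11.7%), with a median of 0.75. At an unadjusted p under 0.05, 7 were higher and 2 lower in this window. DESeq2 called 3 and 1, with Glul at a log2 change of -0.993. From P6 to P14, 7 were higher and 0 lower (all genes: 10.13% and 5.52%), with a median of 1.80 against 0.03; 9 were higher and 0 lower at an unadjusted p under 0.05, and DESeq2 called the same numbers as edgeR. From P14 to P28, 0 were higher and 2 lower (all genes: 4.05% and 4.81%), with a median of -0.23; at an unadjusted p under 0.05, 0 were higher and 4 lower, and DESeq2 again called 0 and 2. The 7 genes of P6 to P14 were Glul, Kcnj10, Aqp4, Abca8a, Car14, Apoe and Clu. Rods mature in the same days, and the summed level of 8 rod markers was 6414 to 6449.7 CPM at P6 and 32038 to 32828 CPM at P14. The part of that shift in RNA make-up in the levels of the 7 genes was not tested.

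Between neighbouring ages, 21 of 110 pairs of gene and step were called. Gpr37 was higher and Aqp4 and Clu lower at E12 than at E11, where 4.08% of all genes tested were higher and 3.92% lower. Kcnj10 and Gpr37 were higher and Car14 lower at E14 than at E12 (all genes 7.52% and 3.38%). At E16, Kcnj10 and Gpr37 were again higher than at E14, and Car14 and Vim lower (5.47% and 1.67%). Kcnj10 and Apoe were higher at P0 than at E16 (4.75%, with 3.03% lower). Car14 alone was called from P2 to P4, upwards (3.97%, with 7.28% lower). At P10, 4 genes were higher than at P6, Glul, Aqp4, Abca8a and Clu (4.59%, with 3.28% lower). At P14, 4 were higher than at P10, Glul, Kcnj10, Aqp4 and Clu (3.45%, with 1.08% lower). In 4 steps, P0 to P2, P4 to P6, P14 to P21 and P21 to P28, 0 of 40 pairs were called by edgeR. Of these 40, 18 had an unadjusted p under 0.05, and DESeq2 called 2. Without the 3 libraries high in lens markers, edgeR called 3 of these 40, Abca8a from P0 to P2 (adjusted p = 0.0247) and from P4 to P6 (0.0129) and Aqp4 from P4 to P6 (log2 1.30, adjusted p = 0.0420; range over 33 alternatives 6.88e-04 to 0.610), and 25 of the 110 pairs in all. In those steps 3.02%, 1.08%, 4.31% and 0.339% of all genes were higher and 0.961%, 1.54%, 5.07% and 0.549% lower.

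**Figure D2:**
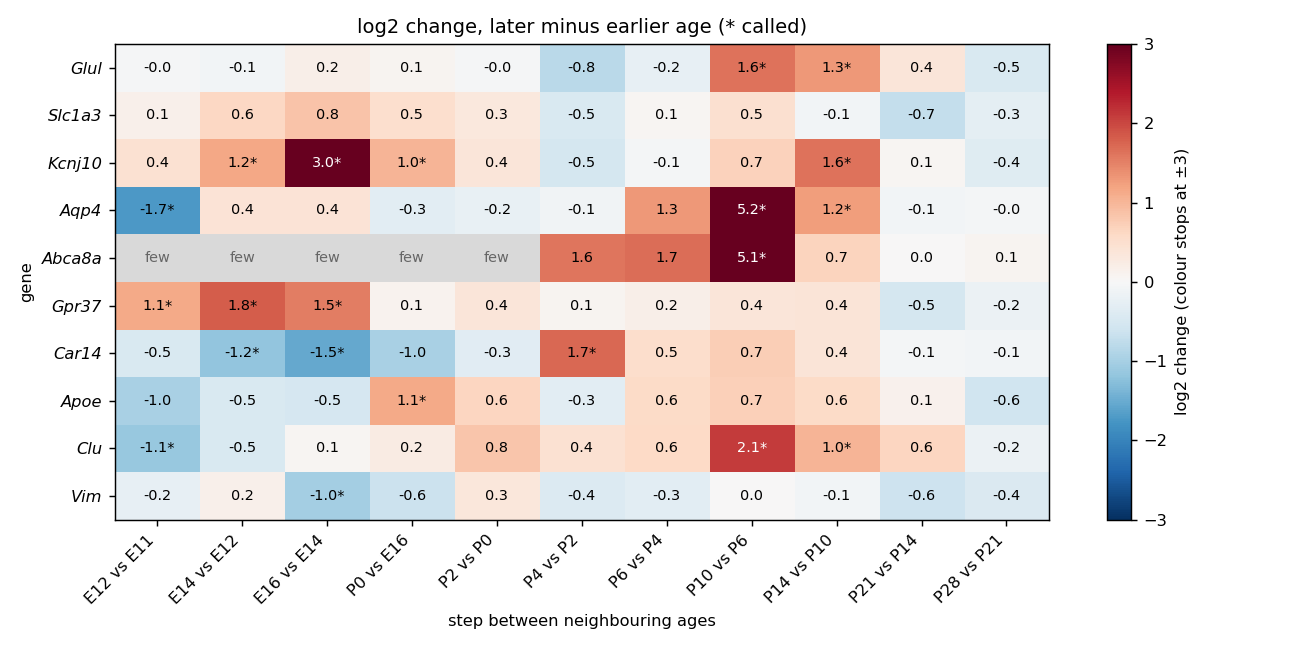
Fitted log2 change of the 10 genes (rows) in each of the 11 steps between neighbouring ages (columns), with an asterisk where the step was called and grey cells where an age had 3 or fewer counts. The largest called changes are those of Aqp4 (5.2) and Abca8a (5.1) from P6 to P10 and of Kcnj10 (3.0) from E14 to E16.

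Glul and Slc1a3 handle glutamate. Glul (GRCm38 chr1:153899944-153909723, plus strand) encodes glutamine synthetase, which turns glutamate and ammonia into glutamine. Its level was 538 and 430.0 CPM at E11, 486 and 523 CPM at E16, 552 and 491 CPM at P2, 303 and 288 CPM at P4 and 239.9 and 259 CPM at P6. It then reached 811 and 734 CPM at P10, 1789.6 and 2002 CPM at P14, 2463 and 2407 CPM at P21 and 1952 and 1608 CPM at P28. Glul was therefore abundant throughout, with its lowest libraries at P6 and its highest at P21, a 9.76-fold range of fitted means. From E16 to P6 it fell by 1.02 on the log2 scale (SE 0.11, adjusted p = 9.6e-07, edgeR quasi-likelihood), and no library of P6 overlapped one of E16. That fall lies at the 2-fold limit: 28 of 34 alternative analyses kept it, with log2 changes of -1.14 to -0.95 and adjusted p from 2.54e-17 to 8.06e-05. Glul then rose 7.60-fold from P6 to P14 (log2 2.93, SE 0.12, adjusted p = 2.09e-11, edgeR), and both neighbouring steps were called, P6 to P10 at 3.10-fold and P10 to P14 at 2.45-fold.

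Slc1a3 (chr15:8634124-8710764, minus strand) encodes GLAST, the sodium-driven glutamate transporter of Müller glia. Its level was 89.6 and 48.6 CPM at E11, 200.5 and 219 CPM at E16, 401 and 346 CPM at P2, 265 and 279 CPM at P4, 399 and 390.3 CPM at P10, 358 and 385 CPM at P14 and 199.03 and 169 CPM at P28. The libraries of P10 lay between those of P2, so these highest ages do not differ beyond their spread. Slc1a3 rose 3.03-fold from E11 to E16 (log2 1.60, SE 0.19, adjusted p = 2.85e-06, edgeR). Of its 11 steps between neighbouring ages, 0 were called by edgeR or DESeq2, and 6 had an unadjusted p under 0.05. From P6 to P14 its change of 0.40 on the log2 scale had an adjusted p of 0.109 (edgeR). From P14 to P28 it fell by 1.01 on the log2 scale (SE 0.19, adjusted p = 8.6e-04, edgeR), with no overlap between the ages. That fall was kept in 30 of 34 alternatives (log2 -1.14 to -0.90, adjusted p from 1.54e-11 to 0.0203).

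The other 10 genes of glutamate and glutamine handling moved in both directions. From E16 to P6, 4 were higher and 2 lower, with a list median of -0.13 on the log2 scale against 0.01 over all genes tested. Slc1a7 and Slc1a1, both glutamate transporters, rose by 3.88 and 3.49 on the log2 scale. Slc38a3, a glutamine transporter, rose by 2.42. Between P6 and P14, 2 were higher and 1 lower (median 0.11 against 0.03 over all genes). Among them were Slc38a3 with a log2 change of 1.14 and Slc1a5, a neutral amino acid transporter, with -1.39.

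Kcnj10, Aqp4 and Car14 carry potassium, water and bicarbonate. Kcnj10 (chr1:172341210-172374085, plus strand) encodes Kir4.1, the inwardly rectifying channel through which Müller glia take up and release potassium. Its level was 0.23 and 0.55 CPM at E11, 1.02 and 1.35 CPM at E14, 10.3 and 8.90 CPM at E16, 20.4 and 18.4 CPM at P0, 16.7 and 16.3 CPM at P6, 29.97 and 23.2 CPM at P10, 78.7 and 85.5 CPM at P14, 84.2 and 85.8 CPM at P21 and 69.1 and 63.8 CPM at P28. The level went up in separate phases, from E12 to P0 and from P6 to P14. On the log2 scale the largest steps were from E14 to E16 and from P10 to P14. The mean CPM at E16 was 11.3% of that at P21. The step from P6 to P10 (log2 0.69, adjusted p = 0.00333, edgeR) was not called for its size. Kcnj10 rose 24.7-fold from E11 to E16 (log2 4.62, SE 0.24, adjusted p = 6.33e-11, edgeR), of which the step from E14 to E16 was 8.14-fold, and 4.98-fold from P6 to P14 (log2 2.32, SE 0.16, adjusted p = 9.31e-09, edgeR). The steps from E12 to E14 (log2 1.15), E16 to P0 (1.01) and P10 to P14 (1.63) were called too. The first of them was 0.81 with an adjusted p of 0.186 (edgeR) without the 3 libraries high in lens markers, and its adjusted p ran from 9.41e-04 to 0.186 over 33 alternatives, with 0.0651 and 0.0775 without replicate 2 of E12 or E14. The step from E16 to P0 was 0.91 without E16 replicate 2 and 0.94 without P0 replicate 1. At E11 its level is low, and over 34 alternatives the change from E11 to E16 ran from 4.13 (without the 3 libraries) to 5.37 (without E11 replicate 2). Its libraries of P14 and P21 overlapped.

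Aqp4 (chr18:15389394-15403684, minus strand) encodes aquaporin-4, the water channel of glial end feet. It was at or under 2.09 CPM in each of the 16 libraries up to P6. It reached 52.2 and 48.9 CPM at P10, 110.1 and 130.2 CPM at P14, 109 and 117 CPM at P21 and 114 and 105 CPM at P28. The last 3 ages overlapped, and all of their libraries lay above those of P10. Aqp4 rose 37.4-fold from P6 to P10 (log2 5.23, SE 0.31, adjusted p = 5.47e-09, edgeR) and 2.38-fold from P10 to P14 (log2 1.25, SE 0.24, adjusted p = 0.00163, edgeR). Over P6 to P14 the rise was 88.8-fold (log2 6.47, SE 0.32). At low levels, Aqp4 was called lower at E12 than at E11 (1.08 and 2.09 against 0.37 and 0.58 CPM, log2 -1.73, adjusted p = 0.0123, edgeR). Leaving out E11 replicate 2 gave -1.19 with an adjusted p of 0.195, and leaving out E12 replicate 1 gave -1.45 with 0.122 (range over 33 alternatives 1.67e-06 to 0.195). Aqp4 at E16 against E11 was not called (log2 -0.89, adjusted p = 0.0789, edgeR), but was at -1.29 without E11 replicate 1 (0.0183).

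Car14 (chr3:95897768-95904691, minus strand) encodes carbonic anhydrase 14, a membrane enzyme that interconverts carbon dioxide and bicarbonate at the cell surface. It followed another course, with 183 and 194 CPM at E11, 131 and 144 CPM at E12, 62.5 and 58.4 CPM at E14, 20.03 and 21.8 CPM at E16, 9.52 and 11.7 CPM at P0 and 9.29 and 7.66 CPM at P2. It then stood at 28.07 and 27.4 CPM at P4, 40.5 and 39.6 CPM at P6, 66.0 and 68.4 CPM at P10, 80.5 and 94.3 CPM at P14 and 86.8 and 70.6 CPM at P28. The trough was at P0 to P2, and every library from P4 on lay above it and under both E11 libraries. Car14 fell by 3.17 on the log2 scale from E11 to E16 (SE 0.13, adjusted p = 4.38e-12, edgeR), rose 3.28-fold from P2 to P4 (log2 1.71, SE 0.13, adjusted p = 1.33e-07, edgeR) and rose 2.18-fold from P6 to P14 (log2 1.13, SE 0.12, adjusted p = 1.45e-06, edgeR). Pigment epithelium also expresses Car14, and 10 pigment epithelium markers summed to 179.5 to 231 CPM at E11, 26.3 to 40.8 CPM at E16, 20.03 to 23.1 CPM at P0, 169 to 218 CPM at P10, 122 to 146 CPM at P14 and 28.8 to 47.7 CPM at P21. Car14 itself stood at 81.6 and 84.9 CPM at P21. The part of pigment epithelium in the level of Car14 was not tested.

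Among 10 other genes of ion, water and bicarbonate transport, 6 were higher and the other 4 were not called at P14 against P6, with a median of 1.45 on the log2 scale against 0.03 over all genes tested. Aqp1, another water channel, had the largest change of the 6, from 1.90 to 49.2 CPM (log2 4.70, SE 0.22). Among the others were Slc4a3, an anion exchanger, with 2.27, Kcnj2, another inward rectifier, with 1.89, Slc4a4, a sodium bicarbonate cotransporter, with 1.62 and Trpv4, a cation channel, with 1.33. Some of these genes are also used by neurons. Of 10 genes of the dystrophin complex and its matrix partners, which anchor Kir4.1 and aquaporin-4 at the end feet, 4 were higher and 1 lower in the same window (median 0.86). Among them, Utrn rose by 1.44, Dtna by 1.02 and Sntb1 by 1.01, and Agrn fell by 1.04 on the log2 scale. With library size as the only scaling, 3 genes of the list were called in place of 5. Dmd, dystrophin itself, had already risen from 75.2 to 361 CPM between E16 and P6 (log2 2.26).

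Abca8a, Apoe and Clu belong to lipid transport. Abca8a (chr11:110025634-110095978, minus strand) encodes a lipid transporter of the ABC family. It was listed at 0 in both libraries of E11 and E14, at an estimated count of 0.35 in 1 library of P0 and 0 in the other, and at no more than 0.83 CPM in any library before P4. Its level was 0.75 and 2.09 CPM at P4, 4.42 and 4.74 CPM at P6, 172 and 148 CPM at P10, 268 and 237 CPM at P14, 249.6 and 258 CPM at P21 and 268 and 270.1 CPM at P28. Abca8a thus went from a low level at P6 to its mature level at P14, and its P14 libraries overlapped those of P21 and P28. Its counts over both libraries were 1 at E16, 293 at P6 and 9842 at P10. The ratio of P6 to E16 was 301 with a 95% interval of 53.5 to 11914, which covers counting error only. Against P0, where its estimated counts rounded to 0, P6 was at least 96.6-fold higher at a floor of 3 counts over that age. Abca8a rose 34.8-fold from P6 to P10 (log2 5.12, SE 0.43, adjusted p = 1.45e-06, edgeR) and was 55.0-fold higher at P14 than at P6. Its change from P10 to P14 was not called. The step from P4 to P6 (log2 1.68, adjusted p = 0.0546, edgeR) was called without the 3 libraries high in lens markers (1.68, adjusted p = 0.0129) and with summed transcript estimates (3.54, adjusted p = 6.83e-06). The step from P2 to P4 (1.60, adjusted p = 0.107, edgeR) was called without the 3 libraries (1.59, adjusted p = 0.0474). Over 33 alternatives the adjusted p of Abca8a ran from 8.09e-10 to 0.461 for P4 to P6, from 4.19e-05 to 0.653 for P2 to P4 and from 1.97e-07 to 0.665 for P0 to P2.

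Apoe (chr7:19696109-19699188, minus strand) encodes apolipoprotein E, which Müller glia and microglia secrete. Its level was 91.2 and 89.4 CPM at E11, 30.6 and 35.5 CPM at E14, 22.4 and 24.3 CPM at E16, 56.1 and 47.5 CPM at P0, 81.8 and 112 CPM at P6, 155 and 162 CPM at P10, 242 and 229.9 CPM at P14, 253 and 264 CPM at P21 and 174 and 170.1 CPM at P28. Its lowest libraries were those of E16 and its highest those of P21. Apoe fell by 1.95 on the log2 scale from E11 to E16 (SE 0.18, adjusted p = 1.2e-07, edgeR), rose 4.15-fold from E16 to P6 (log2 2.05, SE 0.18, adjusted p = 6.11e-08, edgeR) and rose 2.43-fold from P6 to P14 (log2 1.28, SE 0.17, adjusted p = 1.89e-05, edgeR). The step from E11 to E12 (log2 -0.98, adjusted p = 0.00108, edgeR) was not called for its size, and was -1.29 without the 3 libraries high in lens markers (adjusted p = 4.04e-04; range over 33 alternatives 4.34e-10 to 0.0281). The 10 microglia markers summed to 68.8 to 83.0 CPM at E11, 43.4 to 50.4 CPM at E16, 72.1 to 77.8 CPM at P6, 89.8 to 93.6 CPM at P14 and 43.9 to 50.6 CPM at P21. Their part in the level of Apoe was not tested. In TPM, which are scaled by transcript length and library total, the Apoe libraries of P14 (654 and 605) and P21 (607 and 642) overlapped.

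Clu (chr14:65968483-65981548, plus strand) encodes clusterin, a secreted chaperone that also travels on lipoproteins. Its level was 25.2 and 12.18 CPM at E11, 4.69 and 12.11 CPM at E12, 3.29 and 9.09 CPM at E14, 6.196 and 6.55 CPM at E16, 27.7 and 27.5 CPM at P6, 112 and 123 CPM at P10, 229 and 248 CPM at P14, 369.98 and 370.1 CPM at P21 and 333 and 322 CPM at P28. Every library from P0 on lay above both of E16. Clu rose 4.32-fold from E16 to P6 (log2 2.11, SE 0.38, adjusted p = 2.13e-04, edgeR), 8.65-fold from P6 to P14 (log2 3.11, SE 0.37, adjusted p = 5.03e-06, edgeR) and 4.27-fold in the step from P6 to P10. The step from P10 to P14 (2.03-fold, adjusted p = 0.0484, edgeR) was kept in 12 of 33 alternatives, with adjusted p from 1.6e-07 to 0.187.

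At each of E11, E12 and E14 the library with the higher lens sum had the higher Clu level. Between ages this order did not hold. Clu was 12.18 CPM in E11 replicate 2 (lens sum 13.99 CPM) and 12.11 CPM in E12 replicate 2 (2883 CPM). In E12 replicate 1 (lens sum 212 CPM) Clu was 4.69 CPM. That is under Clu in both libraries of E16 (6.196 and 6.55 CPM), where the lens sum was 1.86 to 2.16 CPM. The lower level of Clu at E16 than at E11 (log2 -1.55, SE 0.38, adjusted p = 0.00304, edgeR) became -0.93 without E11 replicate 1 (adjusted p = 0.0757) and -0.93 without the 3 libraries (range over 34 alternatives 3.06e-13 to 0.0757). The lower level at E12 than at E11 (-1.15) became -0.53 without E11 replicate 1 and -0.63 without E12 replicate 1. The part of lens tissue in these values was not tested.

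**Figure D3:**
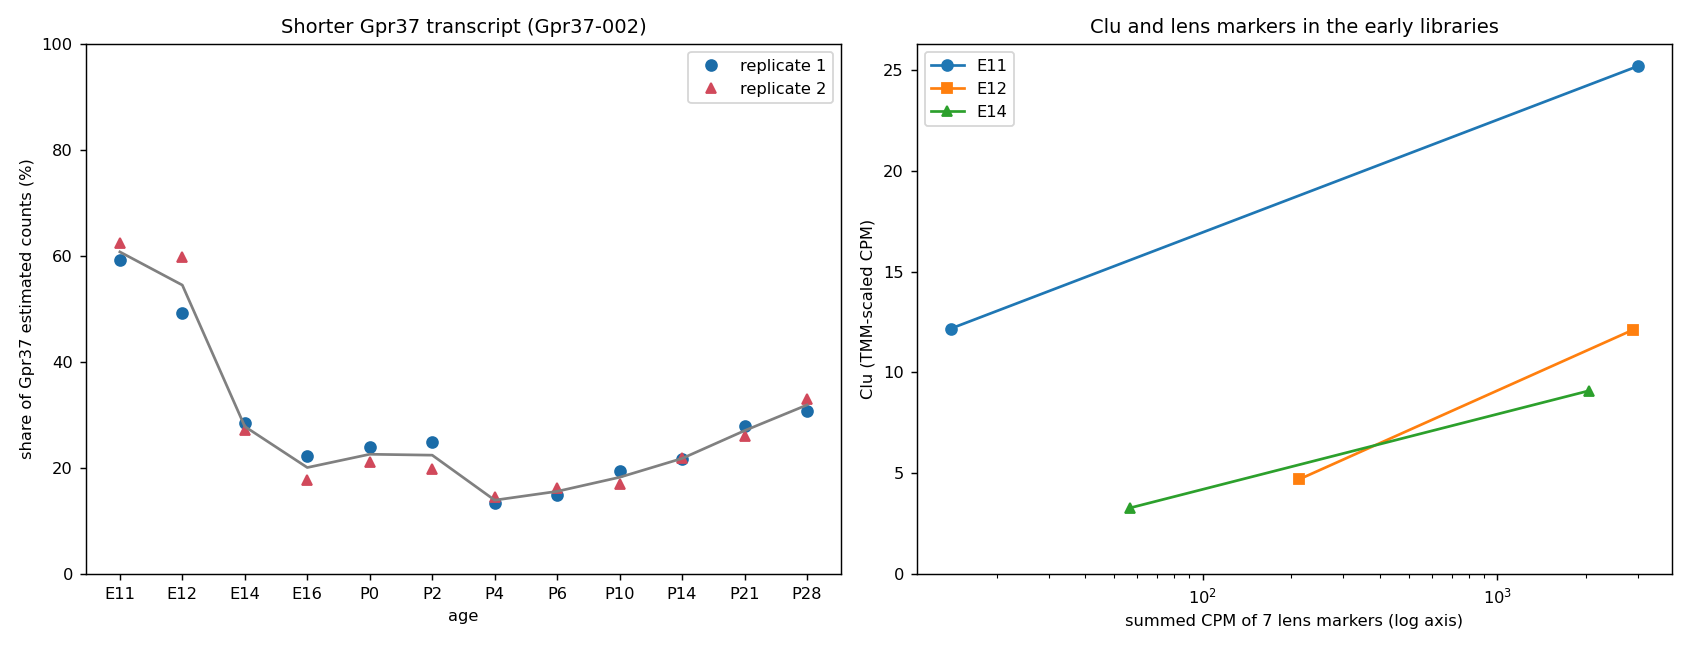
Left, share of the estimated counts of Gpr37 assigned to its shorter transcript against age (points are libraries, the line joins the means); right, Clu level against the summed level of 7 lens markers (log axis) in the 2 libraries of E11, E12 and E14, joined by age. The shorter transcript takes 59.2% and 62.4% at E11 and 13.4% and 14.5% at P4, and Clu is higher in the library with more lens transcripts at each of the 3 ages.

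Of 12 other genes of lipoprotein and lipid transport, 6 were higher and 2 lower at P6 than at E16, with a median of 1.17 on the log2 scale against 0.01 over all genes. Abca1, which loads cholesterol onto apolipoprotein E, rose from 7.89 to 131 CPM (log2 4.05, SE 0.20). Between P6 and P14, 4 were higher and 1 lower (median 0.44), among them Abca8b, the neighbour and close relative of Abca8a, from 17.3 to 59.5 CPM (log2 1.78). Of the 6343 words of 31 bases in the Abca8a transcripts, 183 also occur in Abca8b, and 3.11% occur in any other gene, so most of the Abca8a sequence tells them apart.

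Gpr37 (chr6:25665878-25690729, minus strand) encodes an orphan G protein-coupled receptor of glia. Its level was 4.34 and 2.09 CPM at E11, 9.06 and 5.26 CPM at E12, 27.0 and 23.3 CPM at E14, 73.9 and 72.4 CPM at E16, 118 and 122 CPM at P6, 191 and 213 CPM at P14 and 125 and 122 CPM at P28. On the log2 scale most of its range was covered before birth, while its mean CPM at E16 was 36.2% of that at P14. Gpr37 rose 22.6-fold from E11 to E16 (log2 4.50, SE 0.25, adjusted p = 1.41e-10, edgeR; 4.08 to 5.13 without one or the other E11 library) in 3 called steps of 1.15, 1.82 and 1.54 on the log2 scale. The first of these was 0.71 without E11 replicate 2 (adjusted p = 0.0697, edgeR) and 0.70 without E12 replicate 1 (0.104), with adjusted p over 33 alternatives from 4e-08 to 0.104. No later step was called, and the windows from E16 to P6 (log2 0.71), P6 to P14 (0.75) and P14 to P28 (-0.71) stayed under 2-fold. The deposited transcript estimates split Gpr37 over 2 protein-coding transcripts of 4974 and 3035 bases. The shorter one, Gpr37-002, held 59.2% and 62.4% of the gene's estimated counts at E11, 49.3% and 59.7% at E12, 28.5% and 27.2% at E14, 13.4% and 14.5% at P4 and 30.9% and 33.0% at P28. The shares were thus highest in the libraries where the gene itself was lowest, and they are a description of an estimate, with no test.

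Vim (chr2:13573927-13582826, plus strand) encodes vimentin, the intermediate filament of retinal progenitors and of Müller glia. Its level was 839 and 508 CPM at E11, 633 and 639 CPM at E14, 311 and 321 CPM at E16, 198 and 209 CPM at P0, 155 and 156 CPM at P6, 148 and 151 CPM at P14 and 81.3 and 63.1 CPM at P28. All libraries from E16 on lay under those of E11, E12 and E14, and from P6 to P14 the log2 change was -0.06 (adjusted p = 0.822, edgeR). It fell by 1.09 on the log2 scale from E11 to E16 (SE 0.16, adjusted p = 2.75e-05, edgeR), mostly between E14 and E16 (-1.01, or -0.99 without E16 replicate 1), by 1.02 from E16 to P6 (SE 0.16, adjusted p = 4.96e-05) and by 1.05 from P14 to P28 (SE 0.16, adjusted p = 1.71e-04). The first fall was -0.68 both without E11 replicate 1 and without the 3 libraries high in lens markers, and its adjusted p ran from 1.56e-13 to 0.0213 over 34 alternatives. The last was -0.88 without P28 replicate 2 (adjusted p = 0.00685, edgeR; range 1.04e-12 to 0.00685). The 8 progenitor and cell cycle markers summed to 6176 to 6659 CPM at E16, 465 to 564 CPM at P6 and 98.1 to 118 CPM at P14.

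The other genes of intermediate filaments and gliosis split as well. From E16 to P6, 4 were higher and 3 lower of 11 (median 0.18 on the log2 scale, or 0.22 without the 1 gene that had too few counts for a fold). Gfap, the filament protein of astrocytes and of stressed Müller glia, rose from 0.97 to 12.8 CPM (log2 3.72) and Nes, nestin of progenitors, fell by 1.20 on the log2 scale. Over the same time the summed level of 4 astrocyte markers, Gfap among them, went from 8.41 to 10.6 CPM at E16 to 98.9 to 122 CPM at P6. Nes fell again by 1.85 from P6 to P14.

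Other genes commonly used to mark Müller glia were read from a list of 12. From E16 to P6, 6 were higher and 2 lower, with a median of 1.09. Rlbp1, the retinal-binding protein of the visual cycle, rose from 8.45 to 281 CPM (log2 5.06, SE 0.24), Mlc1, a membrane protein of end feet, by 3.99, and Rgr, an opsin of Müller glia and pigment epithelium, by 2.85. Dkk3, a secreted protein present in progenitors too, fell by 1.76. Between P6 and P14, 6 were higher and 6 were not called, with a median of 1.32, and Cav1 (caveolin-1) had the largest change, from 5.73 to 84.9 CPM (log2 3.89, SE 0.29), followed by Cd44 with 2.73 and Timp3 with 2.48. Mlc1 rose again by 1.72 and Rlbp1 was not called. On the log2 scale both had their larger change before P6, when Aqp4 was still at or under 1.81 CPM. The mean CPM of Mlc1 was highest at P21 (77.0) and next at P14 (72.2).

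Transcription factors and signals that act when glia form were followed as a list. Of 13 such genes, 6 were higher and 1 lower from E11 to E16 (median 0.81), among them Hes5 (log2 4.41), a Notch effector, and Sox8 (3.60). From E16 to P6, 1 was higher and 10 were lower (median -1.44). The list sum did not fall steadily, with 893 to 948 CPM at E16, 1493 to 1513 CPM at P2 and 547 to 591 CPM at P4. Sox8, Lhx2, Notch1, Hes5, Nfia, Nfib and Nfix had their highest mean at P2, as did Rax, whose P2 and E14 libraries overlapped. The other genes of the list had theirs at E16 or earlier. Nfix, a nuclear factor I gene, was at 2.86 CPM at E16, 83.2 CPM at P2 and 44.4 CPM at P6 (log2 3.95 from E16 to P6). From E16 to P6, Sox9 fell from 62.3 to 13.9 CPM, Hes1 from 85.7 to 17.9 CPM and Sox2 from 101 to 24.9 CPM. All 3 are also genes of retinal progenitors. In the later window from P6 to P14, Nfia rose by 1.13 on the log2 scale, and Notch1 and Hes5 fell by 1.22 and 1.81.

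**Figure D4:**
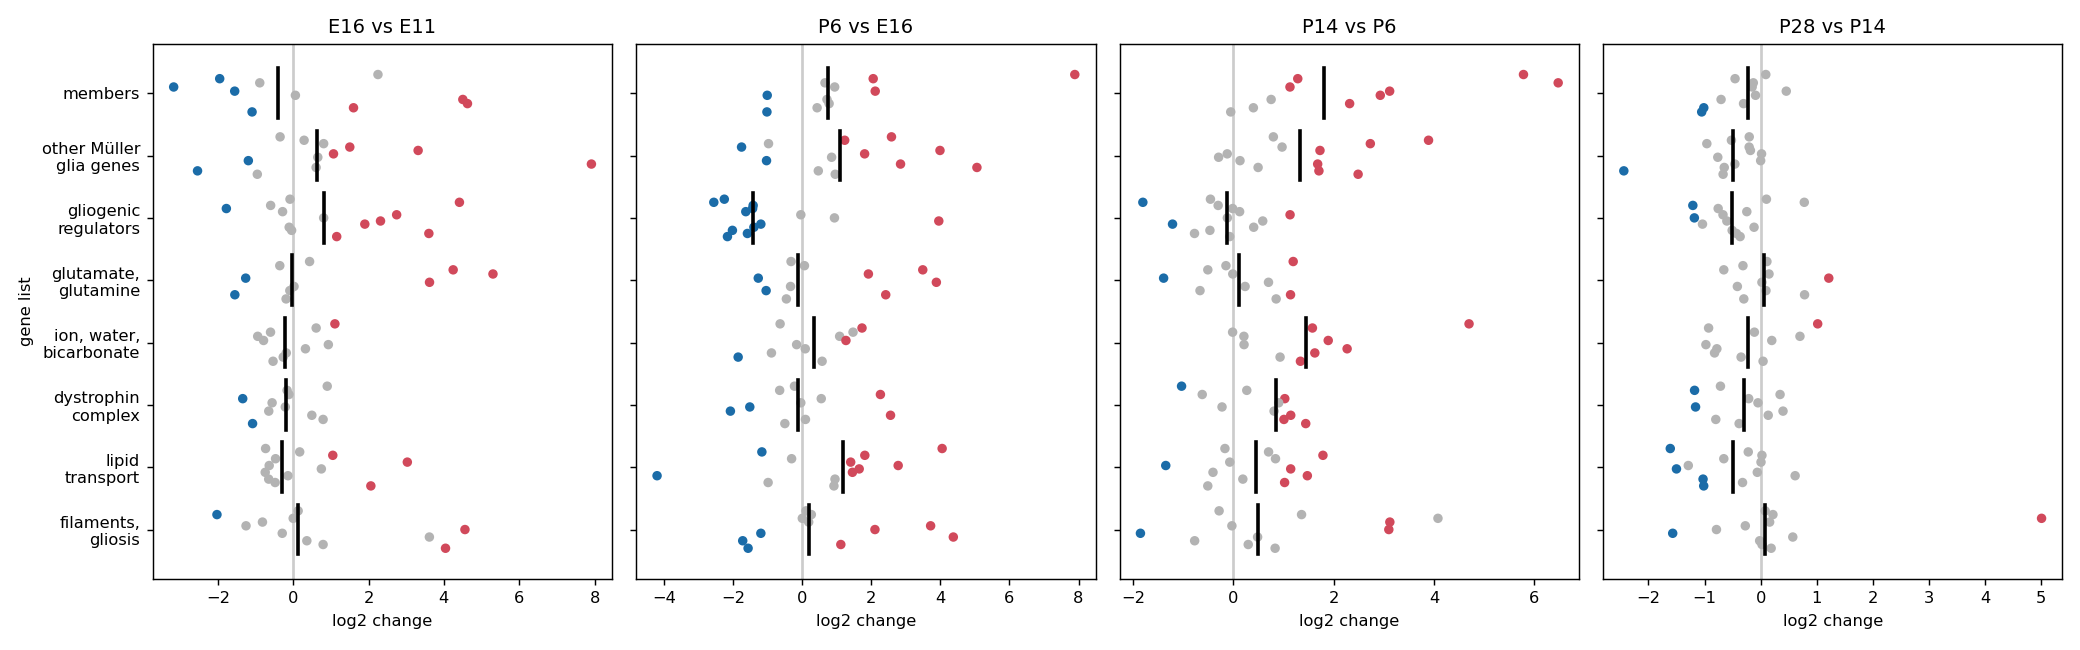
Log2 change in 4 windows for the 10 genes and 7 lists of related genes, with 1 point per gene, red where called higher, blue where called lower and grey where not called, and a black bar at the list median. From P6 to P14 the 10 genes have a median of 1.80 with 7 red points and the ion, water and bicarbonate list a median of 1.45 with 6; points of Abca8a and Rgr beyond 7 rest on an age with 1 or 0 counts and are no measure of size.

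Sequences just upstream of the transcription start are shown for the genes called higher from P6 to P14, the window with the most of the 10 genes called higher. RefSeq (GRCm38.p6) gave a window for Glul (chr1:153899679-153899878, plus strand), Kcnj10 (chr1:172340960-172341159, plus), Abca8a (chr11:110095988-110096187, minus), Car14 (chr3:95904736-95904935, minus) and Apoe (chr7:19699239-19699438, minus), and none is shown for Aqp4 and Clu. Each is 200 bases long, covers the bases from 250 to 51 before the start, and is printed 5′ to 3′ on the gene's strand. Capitals mark 2 motifs on either strand, the SOX core ACAAT, which reads ATTGT from the other strand, and the nuclear factor I half-site TTGGC, which reads GCCAA from the other strand. They belong to the classes of factor that include Sox2, Sox8, Sox9, Nfia, Nfib and Nfix. The LHX2 homeodomain, RBPJ, GC box, TATA and glucocorticoid response half-site motifs were searched as well. Matches to those motifs occur in some of these windows and are not marked.
Glul: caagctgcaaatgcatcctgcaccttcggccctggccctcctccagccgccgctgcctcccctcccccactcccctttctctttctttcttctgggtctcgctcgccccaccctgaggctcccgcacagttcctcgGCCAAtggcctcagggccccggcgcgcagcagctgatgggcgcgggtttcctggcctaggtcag
Kcnj10: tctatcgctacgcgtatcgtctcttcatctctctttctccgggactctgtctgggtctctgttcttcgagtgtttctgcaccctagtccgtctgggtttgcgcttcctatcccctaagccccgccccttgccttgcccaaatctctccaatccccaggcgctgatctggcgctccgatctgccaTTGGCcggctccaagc
Abca8a: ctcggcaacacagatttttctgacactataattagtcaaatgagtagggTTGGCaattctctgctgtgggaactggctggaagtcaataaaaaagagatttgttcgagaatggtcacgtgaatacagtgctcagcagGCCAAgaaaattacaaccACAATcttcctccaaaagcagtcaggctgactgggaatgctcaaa
Car14: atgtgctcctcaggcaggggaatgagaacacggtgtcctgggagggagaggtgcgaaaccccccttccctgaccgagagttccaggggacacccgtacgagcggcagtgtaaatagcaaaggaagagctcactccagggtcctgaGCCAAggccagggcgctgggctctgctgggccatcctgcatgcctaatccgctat
Apoe: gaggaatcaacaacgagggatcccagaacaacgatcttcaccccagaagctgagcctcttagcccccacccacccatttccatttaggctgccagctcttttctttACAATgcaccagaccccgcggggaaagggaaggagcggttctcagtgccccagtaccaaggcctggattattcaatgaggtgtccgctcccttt
The Abca8a window held 2 nuclear factor I half-sites and 1 SOX core, those of Glul, Kcnj10 and Car14 held 1 half-site each, and that of Apoe held 1 SOX core. Of 32851 promoter windows of the same length in the table, 34.9% held the half-site and 23.7% the SOX core. The matches describe these letters only.

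Across the 12 mean levels, which share libraries and depth, the highest correlation between any 2 of the 10 genes was that of Abca8a and Clu (Pearson r = 0.965 on log2 CPM), followed by Aqp4 and Clu (0.964) and Kcnj10 and Gpr37 (0.946). Kcnj10 and Vim ran in opposite directions (-0.930). Among 10400 genes with a highest mean of at least 20 CPM, those most like Kcnj10 were Kcnc4, Adcy1 and Caly (0.991 to 0.989), those most like Aqp4 were Ppp1r3c, Lrtm1 and Il33 (0.985 to 0.983), and those most like Vim were Ccnd2, Snd1 and Cdh11 (0.992 to 0.984). The highest r by this rule were those of Gpr37 with Fam155a and Gnao1 and of Abca8a with Slc24a1 (0.995 each). None of the 30 genes named by this rule was another of the 10. With rank correlation, 4 of the 30 were kept, so the names depend on the measure. In the authors' deposited table, Glul, Aqp4, Abca8a and Clu shared cluster 22 of 36 (860 of 12718 genes), and Kcnj10 and Gpr37 shared cluster 16 (570 genes).

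Levels between genes were compared per length, as TPM, which divide by transcript length and library total, from the transcript estimates. At P21 the order was Glul (2449 TPM), Apoe (625), Clu (442), Vim (172), Abca8a (167), Slc1a3 (121), Car14 (109), Gpr37 (69.0), Aqp4 (46.7) and Kcnj10 (32.1). Vim (178 and 166 TPM) and Abca8a (161 and 172 TPM) overlapped, and the other neighbours in that order did not. At E11 Vim (1119 and 616 TPM) led, ahead of Glul (420.3 and 316 TPM), and Car14 (188 and 184 TPM) stood above Apoe (170.3 and 157 TPM). The channel gene Kcnj10 thus stood far under the enzyme Glul per length at P21.

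Sequence shared with other genes can move estimated counts. Of the 31-base words in the Glul transcripts, 20.4% also occur in another gene, most of them in the pseudogene Glns-ps1, whose own level was 0.13 to 1.46 CPM. For Car14 the share was 16.4%, all in Aph1a, which overlaps it on the opposite strand and stood at 26.6 to 71.3 CPM. The libraries keep strand, but no label or header says whether the counting used it, so the levels of Car14 at its trough (7.66 to 11.7 CPM) are uncertain. Apoe and Clu shared 0 such words with other genes.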

How the data were processed

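Retina RNA from 12 ages was sequenced in 24 libraries. The authors deposited estimated counts per Ensembl gene and transcript. Per the submitters' processing notes, the tools were kallisto 0.42.4 and edgeR 3.13.9, on GRCm38.p5. Which step each served is not given in the sources. The authors also deposited a table of log2 changes against E11 with p-values, adjusted p-values and a cluster number, per the file headers. Only its clusters are printed here. Their deposited normalized CPM table was not used.

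Gene counts were rounded and analysed with edgeR 4.0.16 in R 4.3.3. Genes were kept by filterByExpr by age at a minimum count of 10 (21858 genes), and TMM factors were applied. The 24 libraries entered 1 quasi-likelihood fit with a coefficient for each age, which left 12 residual degrees of freedom. A call needed a Benjamini-Hochberg adjusted p under 0.05 and a change of at least 2-fold, in the test of all ages, 4 windows and 11 neighbouring steps. SE is the absolute log2 change over the square root of F. The scripts were tested on simulated data. TPM used the transcript lengths the authors deposited, per the file headers. Shared 31-base words were counted in reference transcripts.

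The 10 genes and the lists were chosen with earlier results of these data known. The 10 were described whatever their test. List genes could be named whatever their test, with preference for the 2 largest called changes per list and window, and some genes counted in the lists are not reported by name here. For likeness, the 3 genes with the highest Pearson r over 12 mean log2 CPM values (prior count 2) were named. Alternatives were DESeq2 1.42.0, RLE and library size scaling, 2 other filters, a replicate block, summed transcript estimates, no fold limit, leaving out each library, fitting only the compared ages and, chosen after the data were seen, leaving out the 3 libraries high in lens markers.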

Additional observations from a re-analysis of the deposited data

How the results depend on the processing

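No called result changed direction under any of the alternatives run. Over the 10 genes and 15 comparisons, leaving out 1 library ended a call in 37 values and added one in 19, and the other alternatives ended 18 and added 43. Without the fold limit, 10014 genes were called from E11 to E16, 10294 from E16 to P6, 8278 from P6 to P14 and 5615 from P14 to P28, against 4958, 5451, 3421 and 1936, and of the 10 genes 8 were then called from E16 to P6 and 41 pairs of gene and step, against 5 and 21. Of the 2 genes called from P14 to P28, 1 was called with a filter of 1 CPM in 2 libraries and 1 when only these ages were fitted. With library size alone, 2 genes of the ion, water and bicarbonate list were called from E11 to E16 against 1, and 3 of the dystrophin list from P6 to P14 against 5; this scaling moved the median log2 change of all genes from E11 to E16 to 0.14. With rank correlation 4 of 30 likeness genes were kept.

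Leaving out each library in turn gave 4166 to 5704, 4712 to 5605, 2896 to 3552 and 1256 to 2087 called genes in the 4 windows, the last count being 1256 without P28 replicate 2. Of the 10 genes, 6 to 7, 4 to 5, 7 to 7 and 0 to 2 were called, and 19 to 23 pairs of gene and step. From P14 to P28, 0 were called without P28 replicate 2 and 1 without P14 replicate 2. The lone library left at an age was assumed to vary like the other ages.

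The replicate numbers did not pair the libraries: over 66 pairs of ages, the differences between replicates had correlations of -0.057 to 0.127, with 2 over 0.1. With the replicate number as a block, 16813 genes were called over all ages against 16892, and 20 pairs of gene and step against 21, the step of Clu from P10 to P14 being lost (adjusted p = 0.0538, edgeR, log2 1.02).

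With 2 libraries an age, changes near 2-fold sit at the limit of the calls. At low counts (Aqp4 and Abca8a before P6, Kcnj10 and Gpr37 at E11 and E12) single libraries decide the values. The causes of these shifts were not tested.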
